A study of Mus musculus with 6 samples.

Results

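Integrins are the cell surface receptors that fasten a cell to its surroundings, and 10 integrin genes are described here: Itgam, Itgax, Itgal, Itgb2, Itga4, Itga5, Itga11, Itgav, Itgb1 and Itgb5. They were taken by gene symbol from a table of 55401 mouse genes, in which each of the 10 symbols was found. They are 10 of 27 integrin subunit genes looked up in that table. All 10 had enough counts to be tested.

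Each integrin is a pair of 1 alpha chain and 1 beta chain, and the pairing sets what the receptor binds. The beta2 chain is made by leukocytes and pairs with the alpha chains of Itgal, Itgam and Itgax to bind cell surface adhesion molecules and complement fragments. The beta1 chain is made by most adherent cells and pairs with many alpha chains to bind fibronectin, collagens and laminins. The alphaV chain pairs with several beta chains, beta5 among them, to bind proteins that carry the RGD motif. Binding strength is controlled from inside the cell, where talins and kindlins attach to the beta tail.

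The cells were cultured mouse bone marrow stromal/stem cells, either WT or Nrf2 knockout, with 3 RNA-seq libraries of each genotype. Both genotypes were kept in DMEM with 10% fetal bovine serum and antibiotics, and no other treatment is named. The labels give no strain, age, sex or knockout allele, and nothing in them tells if a genotype's 3 libraries came from separate animals or cultures. The column names of the knockout libraries share a middle 1 whose meaning is not given, so the knockout part of the spread behind every p may be that of technical repeats.

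The libraries held 18381114 to 21323839 counts, so 3 counts in a library correspond to 0.141 to 0.163 CPM, a count scaled to its library's total. Nfe2l2, the gene for NRF2, had 3082 to 3628 counts in WT libraries and 118 to 149 in knockout libraries. Between replicates, the chi-square of the counts per degree of freedom, which sampling alone sets near 1, was 33.2 to 161.6 between WT libraries and 3.24 to 8.26 between knockout libraries. The cells are labelled stromal, yet macrophage markers were abundant in all 6 libraries, with Cd68 at 749 to 1734 FPKM (reads scaled to exonic length and library total), Csf1r at 84.1 to 99.4 and Adgre1 at 142 to 269.9. The 14 macrophage markers summed to 18410 to 23710 CPM in WT and 19700 to 21600 CPM in knockout libraries. Lyz2 (lysozyme) made up most of that sum. It was lower in every knockout library, at 16850, 14880 and 14260 CPM in WT and 12440, 13150 and 11690 CPM in knockout libraries. The 13 markers other than Lyz2, a sum chosen after the values were seen, came to 6857, 5119 and 4149 CPM in WT libraries. In knockout libraries they came to 8096, 8458 and 8012 CPM, a higher sum in each. Mertk, among the 13, went the other way, at 84.8 to 112.4 CPM in WT and 70.9 to 77.8 CPM in knockout libraries. The 14 stromal markers summed to 1704, 6174 and 8656 CPM in WT libraries 1, 2 and 3 and to 92.4 to 138.8 CPM in knockout libraries. WT library 1 therefore stood apart within its genotype, and values of the 10 genes that rest on it are given with and without it. Pdgfra was at 0.42 to 2.39 FPKM in WT and 0.04 to 0.08 in knockout libraries, Pdgfrb at 6.68 to 24.2 and 0.20 to 0.34, and Col1a1 at 103 to 689 and 1.83 to 4.67. In bulk RNA, fewer cells of a type and less RNA per cell cannot be told apart.

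Before the values, the start regions of 4 of the 10 genes are shown, to set 2 leukocyte alpha chains beside the beta1 chain and its stromal alpha partner, and because each holds a motif match. Each is the 130 bases from 100 before to 30 after the RefSeq transcription start (GRCm38.p6, plus strand), written 5′ to 3′. The window of Itgam is chr7:128062540-128062669, that of Itgax is chr7:128129450-128129579, that of Itgb1 is chr8:128685554-128685683 and that of Itga11 is chr9:62677755-62677884. Capitals mark matches to the motifs named after the sequences.
Itgam: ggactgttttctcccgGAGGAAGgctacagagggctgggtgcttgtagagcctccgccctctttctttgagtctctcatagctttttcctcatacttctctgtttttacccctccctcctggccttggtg
Itgax: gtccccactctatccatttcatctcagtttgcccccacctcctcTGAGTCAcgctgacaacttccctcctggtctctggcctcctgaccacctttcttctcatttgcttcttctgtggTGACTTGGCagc
Itgb1: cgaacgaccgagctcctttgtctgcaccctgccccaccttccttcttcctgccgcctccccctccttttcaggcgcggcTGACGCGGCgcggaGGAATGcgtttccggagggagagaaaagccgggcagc
Itga11: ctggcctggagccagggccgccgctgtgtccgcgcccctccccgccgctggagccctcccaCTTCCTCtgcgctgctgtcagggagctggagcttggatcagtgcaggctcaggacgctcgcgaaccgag

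Motifs were searched on both strands from 250 bases before to 50 after the start, in the 8 members found in the RefSeq promoter table. The antioxidant response element, the site bound by NRF2, was searched as TGACNNNGC and was found for Itgax and Itgb1, 2 of 8, while 12.4% of 32851 promoters held it. The AP-1 site TGANTCA was found for Itgax alone and in 7.81% of promoters. The core of the site of PU.1, a transcription factor of myeloid cells, was searched as GAGGAAG and was found for Itgam, Itga11 and Itgav, against 13.6% of promoters. The TEAD site GGAATG was found for Itgb1 and in 14.7% of promoters. The matches printed in capitals do not overlap each other. These are matches of letters only, and no binding was measured.

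Of the 10 genes, 4 were lower in knockout cells by edgeR's quasi-likelihood test at an adjusted p under 0.05: Itgal, Itga5, Itga11 and Itgb1. None was higher, 0 had an unadjusted p under 0.05 in that direction, and DESeq2 and limma also called 0 higher. The other 6 genes passed in neither direction, which does not show that they were equal between the genotypes. Across all 13184 tested genes 18.7% were called lower, 14.1% higher and 32.9% in either direction. The median log2 fold change, knockout over WT, was -0.28 over the 10 genes and -0.01 over all tested genes. The CPM of the genotypes did not overlap for 4 of the 10, against 50.9% of all tested genes. With 3 libraries against 3, the smallest p an exact two-sided permutation test can give is 0.1, and each of the 4 called genes had that value.

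Levels of the 10 genes are compared per exonic length, in the deposited FPKM. In WT libraries Itgb2 had the highest mean, 490.6 ± 147 (SD, n = 3), followed by Itgb1 at 275.3 ± 80.7 (SD, n = 3) and Itgb5 at 131.6 ± 9.70 (SD, n = 3). The same 3 beta chains led in knockout libraries, in the same order. Among neighbours in the WT order, Itgb5 and Itga5 overlapped in range, as did Itgav and Itgax, and Itga11 and Itga4. Itga5 lay above Itgam in WT and just below it in knockout libraries. Itga11 was the lowest of the 10 in knockout libraries and in WT library 1, while Itgal was the lowest in WT libraries 2 and 3.

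**Figure D1:**
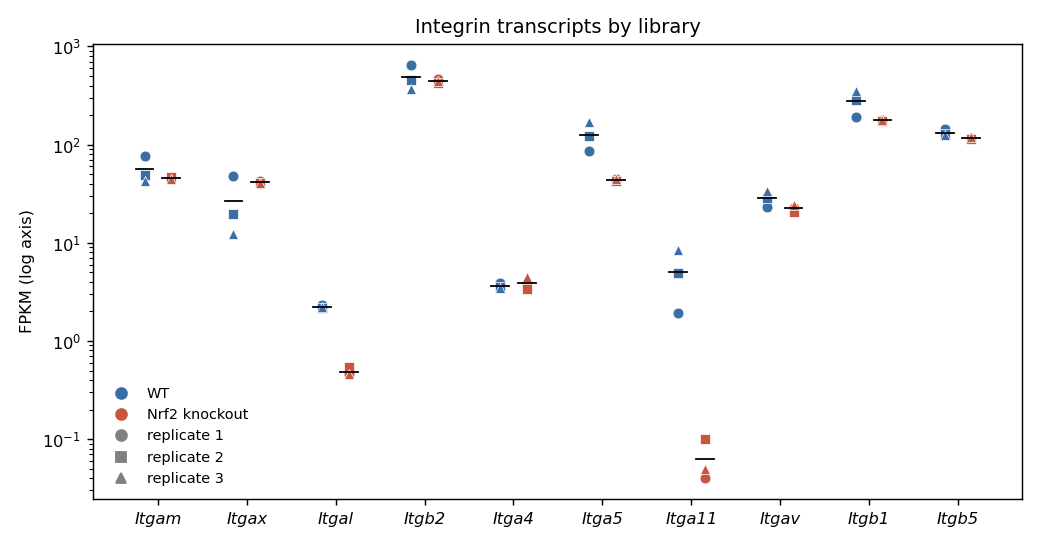
Deposited FPKM (log axis) of the 10 integrin genes in each of the 3 WT and 3 Nrf2 knockout libraries, with marker shapes for replicates 1 to 3 and a line at the mean. For the 4 genes called lower, Itga5, Itga11, Itgal and Itgb1, all knockout points lie below all WT points. Itgax spans 12.4 to 47.7 FPKM among WT libraries and 40.6 to 43.0 among knockout libraries.

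Itgb2 encodes the beta2 chain, without which none of its alpha partners reaches the surface (chromosome 10, 77530252 to 77565708, plus strand, mm10; ENSMUSG00000000290). It was at 652, 455 and 365 FPKM in WT libraries 1, 2 and 3 and at 463, 428 and 449 FPKM in knockout libraries. The WT libraries spanned the knockout range on both sides. With all libraries the log2 fold change came to -0.11 (SE 0.24; edgeR adjusted p = 0.765). It was 0.22 without WT library 1, again not called, so no direction is given for Itgb2.

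Itgam encodes the alphaM chain, CD11b, which with beta2 forms the complement receptor CR3 of macrophages and neutrophils (chromosome 7, 128062640 to 128118491, plus strand; ENSMUSG00000030786). It was at 76.1, 49.4 and 42.4 FPKM in WT and 45.2, 46.3 and 44.7 FPKM in knockout libraries. WT library 1 was the highest and WT library 3 the lowest of the 6, with all knockout libraries between them. Its log2 fold change came to -0.27 (SE 0.24; edgeR adjusted p = 0.426), and 0.08 without WT library 1. Itgam shares 3450 exonic bases with Gm49368 on the same strand, which had a mean of 26 counts against 5092 for Itgam.

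Itgax encodes the alphaX chain, CD11c, which with beta2 forms CR4 and is widely used to mark dendritic cells and some tissue macrophages (chromosome 7, 128129547 to 128150657, plus strand; ENSMUSG00000030789). It was at 47.7, 19.5 and 12.4 FPKM in WT libraries 1, 2 and 3 and at 43.0, 40.6 and 41.0 FPKM in knockout libraries. WT library 1 exceeded all knockout libraries, and the other 2 WT libraries lay below all of them. The highest WT CPM was 4.33 times the lowest, while the knockout libraries differed by 1.06 times. For Itgax the log2 fold change came to 0.65 (SE 0.48; edgeR adjusted p = 0.337) with all libraries and 1.48 (edgeR adjusted p = 4.98e-05) without WT library 1. A call for Itgax therefore rested on whether that library was used. Calls rose over all genes as well without it, to 3188 higher and 3713 lower of 13813. With all libraries they were 1865 and 2468 of 13184. The dendritic cell markers Flt3, Cd209a and Siglech had 0 counts in all 6 libraries, and the 8 dendritic cell markers summed to 2.41 to 3.24 CPM in WT and 0.484 to 0.794 CPM in knockout libraries.

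Itgal encodes the alphaL chain, CD11a, which with beta2 forms LFA-1, the receptor for ICAM proteins (chromosome 7, 127296260 to 127335138, plus strand; ENSMUSG00000030830). It was at 2.31, 2.18 and 2.21 FPKM in WT libraries and at 0.46, 0.54 and 0.46 FPKM in knockout libraries. All WT libraries lay above all knockout libraries, with little spread inside either genotype. Itgal was 4.44-fold lower in knockout cells (log2 fold change -2.15, SE 0.15; edgeR adjusted p = 0.000397). Per 1000 CPM of macrophage markers, Itgal was at 0.672, 0.697 and 0.737 CPM in WT and at 0.150, 0.170 and 0.153 CPM in knockout libraries, so the difference was as wide on that scale. Without Lyz2 in the sum, it was at 2.32, 2.72 and 3.27 CPM in WT and at 0.380, 0.435 and 0.376 CPM in knockout libraries. That lower level without Lyz2 was not particular to Itgal, as all the other genes except Itgax were also lower in every knockout library. Itgam was at 47.26 to 58.55 CPM in WT against 28.25 to 28.58, and Itgb2 at 250.4 to 304.7 against 158.7 to 178. With Lyz2 in the sum, Itgam and Itgb2 overlapped between the genotypes. LFA-1 is also known from lymphocytes, and the 11 lymphocyte markers summed to 1.88 to 4.50 CPM in WT and 3.11 to 4.89 CPM in knockout libraries. Of these sums, Cd79b alone held 1.42 to 2.07 CPM in WT and 2.53 to 3.97 CPM in knockout libraries. Cd3e, a T cell marker, had 7, 8 and 0 counts in WT libraries and 0 in each knockout library. Cd3d, Cd3g and Cd8a likewise had 2 to 15 counts in WT libraries 1 and 2 and 0 in WT library 3 and each knockout library. Of the natural killer cell markers, Ncr1 had 0 counts throughout, Klrb1c had 7, 4 and 6 counts for WT and 1, 2 and 3 for knockout, and Nkg7 had 3, 12 and 1 counts for WT and 11, 9 and 4 for knockout. The part of lymphocytes in the level of Itgal was not tested.

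Itgal, Itgam and Itgax lie on the same chromosome and strand. Itgam ends 11055 bases before Itgax starts, and Itgal ends 727501 bases before Itgam starts. Itgad, the alphaD gene, begins 3718 bases after Itgax and was at 0.01 to 0.14 FPKM in all 6 libraries, too low to be tested. Markers of neutrophils, which also carry CD11b and beta2, were higher in knockout cells for 7 of 10 genes tested, against 14.1% of all tested genes. They summed to 19.4 to 107 CPM in WT and 287.2 to 334.2 CPM in knockout libraries. The 7 were S100a8, S100a9, Elane, Mpo, Ngp, Camp and Ltf. Ly6g, Cxcr2 and Retnlg were not called, with Ly6g at 0 to 16 and Cxcr2 at 6 to 24 counts per library. The part of neutrophils in the levels of Itgb2, Itgam and Itgax was not tested.

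Itgb1 encodes the beta1 chain, shared by the fibronectin, collagen and laminin receptors (chromosome 8, 128685654 to 128733200, plus strand; ENSMUSG00000025809). It was at 191, 282 and 352 FPKM in WT libraries 1, 2 and 3 and at 179.7, 174.2 and 179.0 FPKM in knockout libraries. All knockout libraries lay below all WT libraries, and WT library 1 came closest to them. Itgb1 was 1.48-fold lower in knockout cells (log2 fold change -0.57, SE 0.18; edgeR adjusted p = 0.0466). That value is near the threshold, and the call was lost in 10 of 16 alternatives, in which the adjusted p ran from 0.000162 to 0.137. It was -0.73 without WT library 1 (edgeR adjusted p = 0.000162) and -0.40 without WT library 3 (edgeR adjusted p = 0.0738). Of all genes, 3713 of 13813 were called lower without WT library 1 and 2134 of 13338 without WT library 3.

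Itga5 encodes the alpha5 chain, which with beta1 forms the classical fibronectin receptor (chromosome 15, 103344286 to 103366763, minus strand; ENSMUSG00000000555). It was at 86.4, 121.2 and 170.5 FPKM in WT libraries and at 44.6, 42.2 and 44.3 FPKM in knockout libraries. Every WT library was well above every knockout library, and the lowest and highest WT values were in the libraries with the lowest and highest stromal marker sums. Itga5 was 2.76-fold lower in knockout cells (log2 fold change -1.46, SE 0.20; edgeR adjusted p = 0.00252), and it was called lower in all 16 alternatives, with log2 fold changes from -1.63 to -1.23. Within each library the ratio of Itga5 to Itgb1 FPKM was 0.452, 0.430 and 0.484 in WT and 0.248, 0.242 and 0.247 in knockout libraries. The ratio varied little inside a genotype and did not overlap between them.

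Itga11 encodes the alpha11 chain, which with beta1 forms a collagen receptor of fibroblasts and mesenchymal cells (chromosome 9, 62677826 to 62783982, plus strand; ENSMUSG00000032243). Its counts were 189, 460 and 918 for WT and 4, 11 and 5 for knockout, which is 1.92, 4.88 and 8.39 FPKM against 0.04, 0.10 and 0.05. The genotypes did not overlap, and the WT libraries differed among themselves by 3.88 times in CPM. Itga11 was 74.7-fold lower in knockout cells (log2 fold change -6.22, SE 0.66; edgeR adjusted p = 0.00141). The stromal markers moved with it: 10 of the 11 tested were lower, Eng (endoglin) being the exception, with a median log2 fold change of -5.55. Among all tested genes 18.7% were lower. Per 1000 CPM of stromal markers, Itga11 was at 6.07, 3.95 and 4.64 CPM in WT and at 2.15, 3.84 and 2.24 CPM in knockout libraries. On that scale 1 knockout library came close to the lowest WT library. Eng supplied 50.9, 52.3 and 54.8 CPM of the knockout stromal sums of 92.4, 138.8 and 111.8 CPM. In WT libraries it supplied 48.0 to 59.4 CPM of sums of 1704 to 8656 CPM. The scale therefore weighs Eng far more in knockout libraries, and values without Eng were not computed. The part of stromal cell content in the change of Itga11 was not tested.

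Itga4 encodes the alpha4 chain, which with beta1 forms VLA-4, the receptor by which leukocytes and blood progenitors bind VCAM1 and fibronectin (chromosome 2, 79255426 to 79333123, plus strand; ENSMUSG00000027009). It was at 3.89, 3.55 and 3.45 FPKM in WT and at 3.76, 3.35 and 4.47 FPKM in knockout libraries. The genotypes overlapped. A log2 fold change of 0.13 (SE 0.13; edgeR adjusted p = 0.475) was found, and it ran from 0.03 to 0.24 when single libraries were left out. Itga4 shares 1124 exonic bases with Cerkl on the opposite strand, which had a mean of 11.5 counts against 1052.

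Itgav encodes the alphaV chain, which binds vitronectin, osteopontin and latent TGF-beta (chromosome 2, 83724397 to 83806916, plus strand; ENSMUSG00000027087). It was at 23.4, 28.7 and 33.5 FPKM in WT and at 22.4, 20.5 and 24.4 FPKM in knockout libraries. Only WT library 1 reached into the knockout range. Its log2 fold change came to -0.29 (SE 0.11; edgeR adjusted p = 0.0926) with all libraries and -0.37 (edgeR adjusted p = 0.00782) without WT library 1, so its call too depended on that library. Without that library 3713 of 13813 genes were called lower, against 2468 of 13184 with all libraries.

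Itgb5 encodes the beta5 chain, the partner of alphaV in a vitronectin receptor used for uptake of dying cells (chromosome 16, 33829665 to 33949338, plus strand; ENSMUSG00000022817). It was at 142.6, 127.8 and 124.4 FPKM in WT and at 115.5, 114.6 and 118.6 FPKM in knockout libraries. The FPKM ranges of the genotypes did not overlap, but the CPM after TMM scaling did. Itgb5 was not called (log2 fold change -0.14, SE 0.11; edgeR adjusted p = 0.384), and its log2 fold change was -0.02 without WT library 1 (edgeR adjusted p = 0.892). Itgb3, a further beta partner of alphaV that is known from osteoclasts and platelets, was at 2.36, 4.92 and 7.03 FPKM in WT and at 2.17, 2.23 and 1.83 FPKM in knockout libraries, far below Itgb5, and it was lower in knockout cells (log2 fold change -1.13, SE 0.33; edgeR adjusted p = 0.037).

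**Figure D2:**
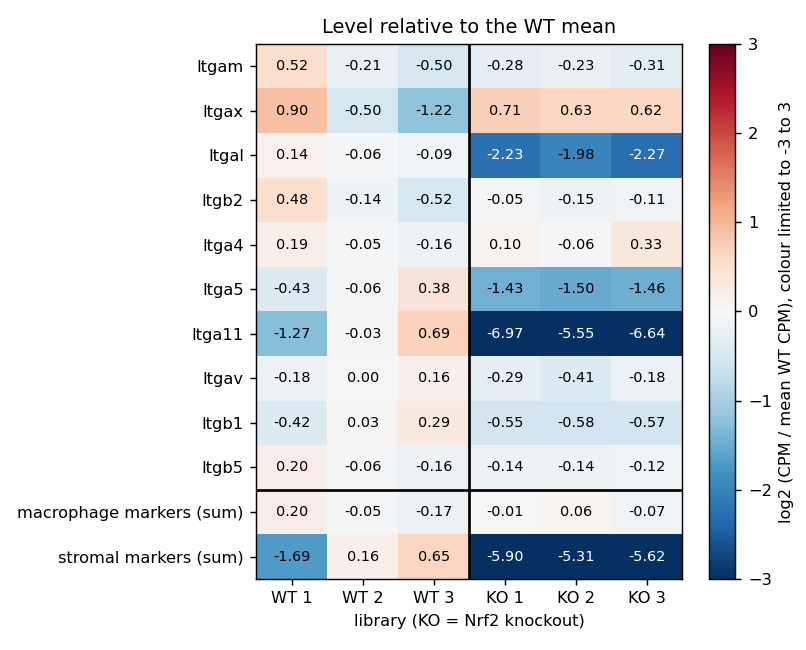
Log2 ratio of each library's CPM to the mean WT CPM for the 10 integrin genes, with the summed macrophage and stromal markers below the line (KO = Nrf2 knockout, colour limited to -3 to 3). Itgax, Itgam and Itgb2 run from high in WT library 1 to low in WT library 3, while Itga5, Itga11, Itgb1 and the stromal markers run the other way. Itgal is near its WT mean in all WT libraries and -1.98 to -2.27 in knockout libraries.

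The WT libraries thus differed among themselves in 2 opposite ways. Relative to the WT mean, WT library 1 was at 0.90 (log2) for Itgax, 0.52 for Itgam and 0.48 for Itgb2, and WT library 3 was at -1.22, -0.50 and -0.52. For Itga11 the same libraries were at -1.27 and 0.69, for Itga5 at -0.43 and 0.38 and for Itgb1 at -0.42 and 0.29. The stromal marker sum followed the second set, at -1.69 in WT library 1 and 0.65 in WT library 3. The macrophage marker sum followed the first set, at 0.20 and -0.17, and at 0.35 and -0.37 without Lyz2. Itgal, Itga4, Itgav and Itgb5 deviated from the WT mean by at most 0.20 in all 3 WT libraries, as the full macrophage marker sum did. Itgal, Itga4 and Itgb5 were also highest in WT library 1 and lowest in WT library 3, while Itgav ran the other way.

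The makeup of the integrin chains per library was described from FPKM with no test. Among all beta chains Itgb2 made up 63.2%, 50.7% and 42.0% of the summed FPKM in WT libraries 1, 2 and 3 and 57.7%, 56.2% and 56.8% in knockout libraries. Itgb1 made up 18.6%, 31.5% and 40.6% in WT and 22.4%, 22.9% and 22.6% in knockout libraries, and Itgb5 13.8% to 14.3% and 14.4% to 15.1%. Itgb2 thus exceeded Itgb1 by 3.41 times in WT library 1 but by 1.04 times in WT library 3, and by 2.46 to 2.58 times in knockout libraries.

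Among the alpha chains that pair with beta2, Itgam was the largest in every library, at 60.3%, 69.4% and 74.4% of the summed FPKM in WT and 50.9%, 52.9% and 51.9% in knockout libraries. Itgax followed at 37.8%, 27.4% and 21.7% in WT and at 48.5%, 46.3% and 47.5% in knockout libraries, so its share was higher in every knockout than in every WT library. Itgal made up 1.83% to 3.88% in WT and 0.518% to 0.617% in knockout libraries. The ratio of Itgam to Itgax ran from 1.60 to 3.42 over WT libraries and from 1.05 to 1.14 over knockout libraries. Among the alpha chains that pair with beta1, Itga5 made up 60.1%, 64.0% and 68.7% in WT and 44.9%, 45.6% and 43.4% in knockout libraries. The laminin receptor chain Itga6 made up 7.21% to 15.5% in WT and 21.9% to 22.2% in knockout libraries, and Itgav 13.5% to 16.3% and 22.1% to 23.9%. Itga6 itself was at 17.9 to 22.2 FPKM in WT and 20.5 to 22.4 FPKM in knockout libraries, and it was not called.

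**Figure D3:**
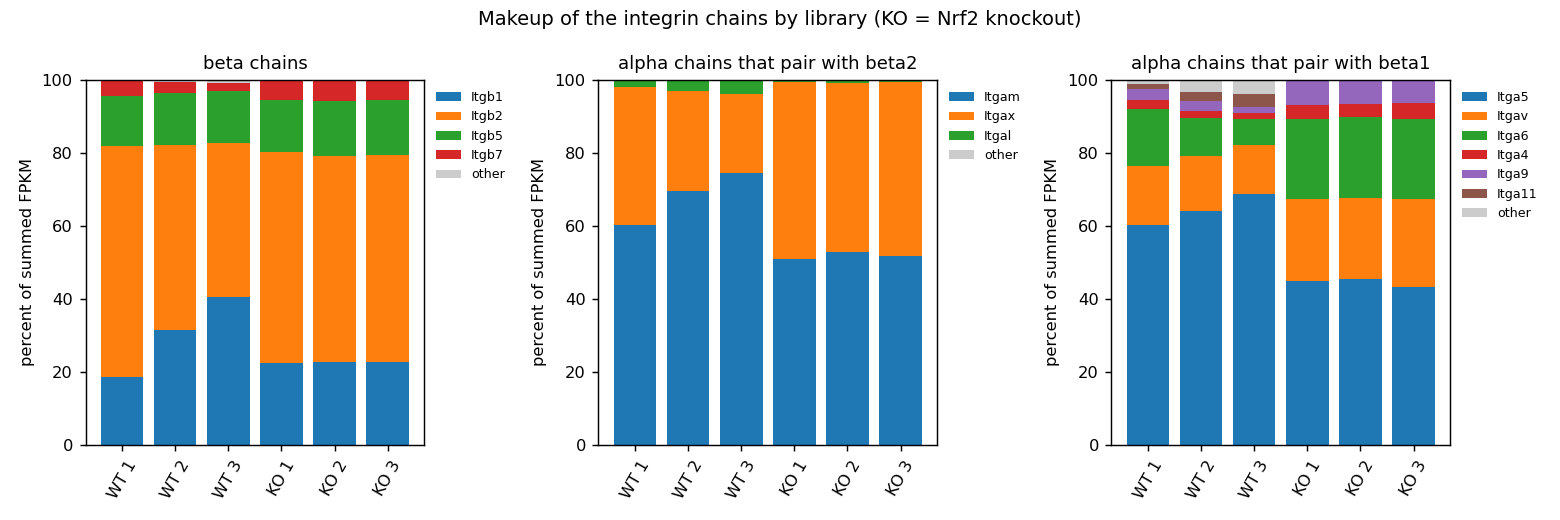
Stacked shares of summed FPKM per library for all beta chains, for the alpha chains that pair with beta2 and for those that pair with beta1 (KO = Nrf2 knockout). The knockout libraries resemble each other, with Itgb2 at 56.2% to 57.7% of the beta chains. WT libraries shift from Itgb2 (63.2% in WT library 1) toward Itgb1 (40.6% in WT library 3).

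Of the 17 other integrin subunits, 10 had enough counts to be tested, and 2 were higher and 5 lower in knockout cells, with a median log2 fold change of -1.14. Over all tested genes 14.1% were higher and 18.7% lower. Itga3, a laminin receptor chain, totalled 825 counts in WT and 1 count in knockout cells, a depth-scaled ratio of 866.8 with an exact 95% counting interval from 155.1 to 34280. Itga7, another laminin receptor chain, was at 0.57, 2.82 and 4.54 FPKM in WT and 0.01 to 0.03 FPKM in knockout libraries (log2 fold change -7.05, SE 0.96; edgeR adjusted p = 0.00261). Both were lowest in WT library 1, as Itga11 was. Itga9, whose chain binds tenascin-C and VCAM1 with beta1, was higher, at 4.16 to 4.93 FPKM in WT and 5.69 to 6.52 FPKM in knockout libraries (log2 fold change 0.48, SE 0.08; edgeR adjusted p = 0.00643). Itgb7, a leukocyte beta chain, was, like Itgax, highest in WT library 1 and lowest in WT library 3, at 43.1, 26.8 and 18.6 FPKM against 41.7 to 41.8 FPKM in knockout libraries (log2 fold change 0.53, SE 0.31; edgeR adjusted p = 0.235). Itga6 was not called (log2 fold change 0.15; edgeR adjusted p = 0.389). Of the remaining called subunits, named after their values were seen, Itga1 and Itga8 were lower (log2 fold changes -1.81 and -1.73) and Itgb2l was higher (1.93), all 3 below 1 FPKM in every library.

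**Figure D4:**
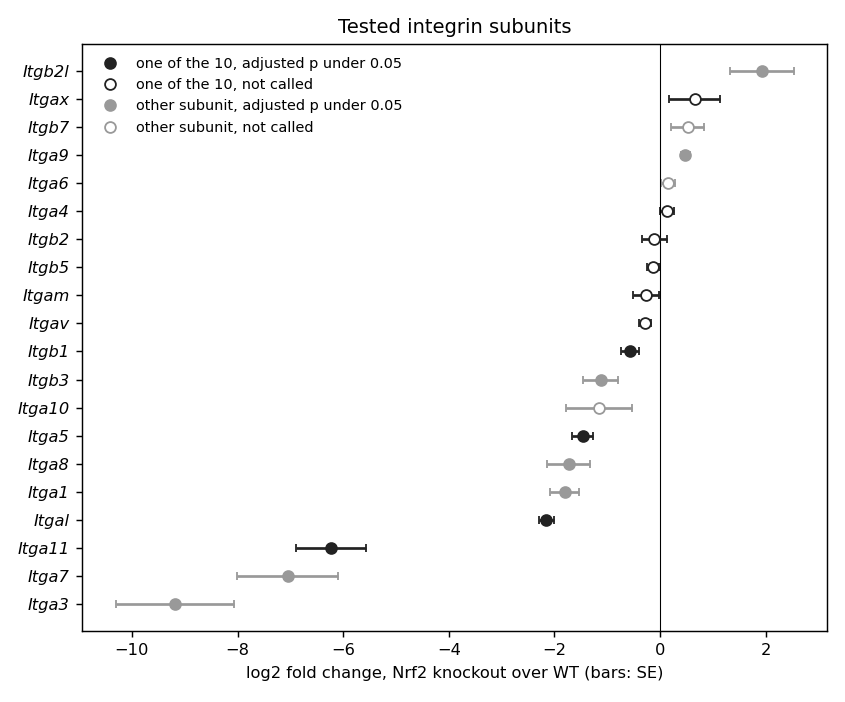
Log2 fold changes (knockout over WT) with SE for the 20 tested integrin subunits, black for the 10 genes and grey for the others, filled where the edgeR adjusted p was under 0.05. The lowest points are Itga11, Itga7 and Itga3, from -6.22 to -9.18. Itga6, a laminin receptor chain like Itga7 and Itga3, is open at 0.15, and Itga1 is filled at -1.81. Itgb2, Itgb5, Itgam, Itgav, Itga4 and Itgax lie between -0.29 and 0.65, all drawn as open points.

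The ligands of these receptors were read from 2 lists. Of 12 cell surface ligands 10 were tested, and 2 were higher and 4 lower, with a median log2 fold change of -0.31. The shares over all tested genes were 14.1% higher and 18.7% lower, so the count of 2 higher was near the general share. Icam1 and Icam2, counter-receptors of the beta2 integrins, were the 2 that rose. Icam1 was at 7.17 to 10.8 FPKM in WT and 13.4 to 16.0 FPKM in knockout libraries (log2 fold change 0.77, SE 0.19; edgeR adjusted p = 0.0217), and Icam2 at 1.13 to 2.19 and 3.74 to 5.60 FPKM (1.35, SE 0.32; edgeR adjusted p = 0.0175). The count of 2 fell to 0 without WT library 2, knockout library 1 or knockout library 2, and to 1 without knockout library 3. Over all genes the count higher fell too, from 1865 to 994, 875, 1051 and 924 in that order of libraries. Itgal, the alpha chain of the receptor for both, was lower in the same libraries. Jam3 and Jam2, junctional molecules bound by beta2 and alpha4 integrins, were lower (log2 fold changes -4.66 and -4.04; edgeR adjusted p = 0.00438 and 0.0102). Thy1, a surface molecule of fibroblasts, had 487 counts over WT and 2 over knockout libraries, a ratio of 255.8 with an exact 95% counting interval from 70.4 to 2118. Vcam1, the ligand of alpha4 integrins, was at 1.09, 2.91 and 4.2 FPKM in WT and at 0.88 to 1.03 FPKM in knockout libraries (log2 fold change -1.43; edgeR adjusted p = 0.0342), and it was named after its values were seen. Icam4 and Madcam1 had 0 counts throughout. Adam9, the ligand with the highest level, was at 57.3 to 66.1 and 52.5 to 56.9 FPKM and was not called (edgeR adjusted p = 0.441).

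Of 25 secreted ligands 20 were tested, and 1 was higher and 17 lower, with a median log2 fold change of -6.03. Beside these counts, 14.1% of all tested genes were higher and 18.7% lower. Fn1, fibronectin, the ligand of the Itga5 receptor, was at 226, 484 and 764 FPKM in WT libraries 1, 2 and 3 and at 21.5, 19.2 and 21.2 FPKM in knockout libraries (log2 fold change -4.50, SE 0.41; edgeR adjusted p = 0.000999). Like Itga5, it was lowest in WT library 1 and highest in WT library 3. Tnc, Ccn2, Fbn1 and Col3a1, a tenascin, a matricellular protein, a fibrillin and a collagen chain, were lower, with log2 fold changes of -7.57, -7.33, -7.06 and -6.01. Spp1, osteopontin, a ligand of alphaV and beta1 integrins, was the most abundant at 12970 to 22650 FPKM in WT and 22480 to 24310 FPKM in knockout libraries and was not called (log2 fold change 0.42, SE 0.27; edgeR adjusted p = 0.271). Tgfb1, whose latent form binds alphaV integrins, was the 1 that rose (0.61, SE 0.17; edgeR adjusted p = 0.0302), and it was named after its values were seen. The count of 1 fell to 0 without WT library 2 or any single knockout library, and was 2 without WT library 1 or WT library 3. Of all genes, 994 were higher without WT library 2 and 875 to 1051 without single knockout libraries, against 1865 with all libraries. The all-gene count was 3188 without WT library 1 and 1520 without WT library 3. The list shares Col1a1, Col1a2 and Col3a1 with the stromal markers.

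Regulators and signalling partners of leukocyte integrins, and proteins of focal adhesions, were read from 2 further lists. Not all of them attach to an integrin tail. Of 24 leukocyte regulators 23 were tested, and 8 were higher and 1 lower, with a median log2 fold change of 0.44. Among all tested genes 14.1% were higher and 18.7% lower. Lcp1, an actin bundler of leukocytes, was at 128 to 211 FPKM in WT and 328 to 351 FPKM in knockout libraries (log2 fold change 1.05, SE 0.22; edgeR adjusted p = 0.0117). Apbb1ip, which brings talin to the beta2 tail, rose by 0.80 (edgeR adjusted p = 0.0117), Rassf5, a Rap1 effector that binds the alphaL tail, by 0.51 (edgeR adjusted p = 0.0172) and the signalling chain Fcer1g by 0.97 (edgeR adjusted p = 0.0201). Cyth1, cytohesin-1, which binds the beta2 tail, was the 1 that fell, at 22.3 to 26.7 FPKM in WT and 14.2 to 15.5 FPKM in knockout libraries (log2 fold change -0.67, SE 0.12; edgeR adjusted p = 0.00575). Tyrobp, the most abundant, was not called (0.35; edgeR adjusted p = 0.269). The count of 8 rested on the libraries used. It was 20 without WT library 1, 0 without WT library 2, 8 without WT library 3, and 1 or 2 without single knockout libraries. Calls over all genes moved too, from 1865 of 13184 higher to 3188 of 13813 without WT library 1. They were 994 of 13400 without WT library 2, 1520 of 13338 without WT library 3 and 875 to 1051 without single knockout libraries. Of the macrophage markers, 4 of 12 tested were also higher and 0 lower, against 14.1% and 18.7% of all tested genes, with a median log2 fold change of 0.52. Lyz2 and Mertk had negative log2 fold changes (-0.30 and -0.34; edgeR adjusted p = 0.16 and 0.0706) and were not called.

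Of 32 focal adhesion proteins 31 were tested, and 17 were lower and 1 higher, with a median log2 fold change of -1.02. For all tested genes the shares were 18.7% lower and 14.1% higher. Fermt2, kindlin-2, was at 6.03, 23.4 and 38.4 FPKM in WT and at 0.08, 0.21 and 0.12 FPKM in knockout libraries (log2 fold change -7.27, SE 0.81; edgeR adjusted p = 0.00163). Its leukocyte counterpart Fermt3, kindlin-3, chosen after its values were seen, was at 59.3, 44.5 and 39.6 FPKM in WT and at 59.7, 59.7 and 60.5 FPKM in knockout libraries (0.36, SE 0.19; edgeR adjusted p = 0.176). Fermt1 had 0 counts throughout. Tln2, Parva, Bcar1 and Pdlim7 had log2 fold changes of -6.32, -6.35, -6.64 and -3.47, with edgeR adjusted p from 0.00147 to 0.00184. Tln1, talin-1, was the 1 that rose, at 106.8 to 129 FPKM in WT and 142 to 155 FPKM in knockout libraries (log2 fold change 0.43, SE 0.14; edgeR adjusted p = 0.0499), and that call at the threshold was lost under relative log expression and upper quartile scaling, among other alternatives. Flna, filamin A, the most abundant, was at 227 to 292 and 212 to 253 FPKM and was not called (-0.07; edgeR adjusted p = 0.667).

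**Figure D5:**
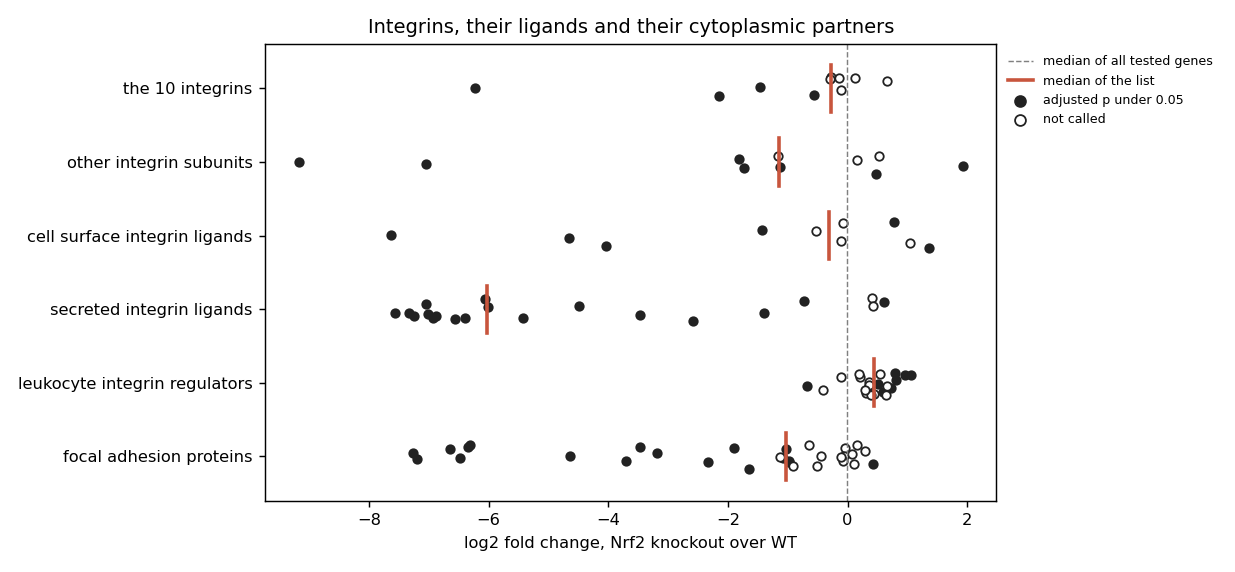
Log2 fold changes (knockout over WT) of tested genes in the 10 integrins and 5 related lists, with points spread vertically for legibility, filled where the edgeR adjusted p was under 0.05, an orange bar at each list's median and a dashed line at the median of all tested genes. The secreted ligands centre on -6.03 and the leukocyte regulators on 0.44.

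For 4 of the integrins, the 3 protein-coding genes with the most similar pattern were found by Euclidean distance between centred log2 CPM over the 6 libraries, among 11931 genes. Those nearest to Itgb2 were Sh3tc1, Alas1 and Tbxas1, at distances of 0.13 to 0.16. Those nearest to Itgb1 were Mlec, Plcb3 and Ctdsp2, at 0.07 to 0.09. Those nearest to Itgax were Egr2, F10 and Cd22, at 0.49 to 0.56, and each of them was high in WT library 1, low in WT libraries 2 and 3 and high again in the knockout libraries. Egr2, for example, was at 53.7, 22.9 and 18.03 CPM in WT and at 50.6, 53.2 and 42.1 CPM in knockout libraries. Those nearest to Itga11 were Tnfrsf11b, Lif and the stromal marker Pdgfrb, at 0.28 to 0.32.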

How the data were processed

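Messenger RNA libraries of 6 samples, 3 WT and 3 Nrf2 knockout, were read as 1 table of raw read counts and FPKM that the authors deposited. Per the submitters' processing notes the tools were DESeq2, HTSeq 0.6.1 and HISAT2 2.0.1 and the build mm10, without a role for each. Whether counting used strand is not given there. Each deposited FPKM equals the count per exonic length and column total within 0.005.

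The counts were tested in R 4.3.3 with edgeR 4.0.16 (filterByExpr with minimum count 10, TMM factors, quasi-likelihood test, genotype as the only term, Benjamini-Hochberg over 13184 genes, call at an adjusted p under 0.05). CPM are TMM-scaled. An SE is the size of the log2 fold change divided by the square root of F. Intervals cover counting error only. The script was tested on simulated data.

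The genes and lists were chosen with earlier results of these data known. Named were the 10 genes, other subunits with a mean FPKM of at least 1, the 5 smallest p and the highest level of each list, the 3 nearest genes, the defining markers and Nfe2l2. Alternatives used other scalings and filters, limma 3.58.1, DESeq2 1.42.0, the replicate number as a block, and dropping single libraries. Coordinates are the table's and match GENCODE M21. Protein sequences were not used here.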

Additional observations from a re-analysis of the deposited data

How the results depend on the processing

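Over all results and alternatives computed, 303 values stayed on their side of the threshold or within the spread allowed, 74 moved, 10 lost and 2 gained a call, and 0 called values changed sign. Itgam and Itgb2, neither of them called, changed sign without WT library 1. Itgal, Itga5 and Itga11 stayed lower in every alternative that tested them. The log2 fold change of Itgb1 lost its call with library totals (-0.63), scaling to the macrophage markers (-0.60), limma on log2(FPKM + 1) and log2(FPKM + 0.1) (-0.59 for both) and the replicate block (-0.54). Leaving out single libraries gave -0.73 to -0.40 for Itgb1, 0.29 to 1.48 for Itgax, -0.37 to -0.20 for Itgav, -0.47 to 0.08 for Itgam, -0.31 to 0.22 for Itgb2 and -0.22 to -0.02 for Itgb5. The same gave 0 to 1 of the 10 genes higher and 3 to 5 lower, 1 to 4 other subunits higher and 3 to 6 lower, 0 to 2 surface ligands higher and 2 to 4 lower, 0 to 2 secreted ligands higher, 0 to 20 leukocyte regulators higher and 1 to 2 lower, 0 to 2 focal adhesion proteins higher, and 875 to 3188 of all genes higher and 1616 to 3713 lower.

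With a mean FPKM of at least 5, which leaves fewer genes, 2 of the 10 genes were lower, 1 other subunit was higher and 0 lower, 1 surface ligand was higher and 0 lower, 0 focal adhesion proteins were higher and 7 lower, and 982 of all genes were higher and 1037 lower. Other subunits higher were 1 with library totals, macrophage scaling, both limma fits and the replicate block. Both limma fits gave 2 other subunits and 2 surface ligands lower, and 1506 (pseudocount 1) and 1564 (0.1) of all genes lower. Leukocyte regulators higher were 14 with macrophage scaling and 13 with DESeq2 and limma at 0.1, and 2 were lower with no filter and with DESeq2. Of all genes, 1651 of 13184 were higher with macrophage scaling, 1937 of 22970 with DESeq2 and 1594 of 10750 with limma at 0.1. Lower were 2823 of 22970 with no filter and 2954 of 22970 with DESeq2. Focal adhesion proteins higher were 0 with relative log expression, upper quartile scaling, no filter and the replicate block. Shares of raw counts, not per length, were 51.8% for Itgb2, 27.6% for Itgb1, 46.3% for Itgax and 28.4% for Itga5 in knockout and 48.2% for Itga5 in WT libraries.

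Deviations of same-numbered libraries of the genotypes had correlations of 0.20, 0.14 and 0.08, and those of differently numbered libraries -0.166 to 0.085. These values do not settle whether the replicate numbers pair the libraries. The labels do not say that they do, so no pairing was used in the main test. The replicate block gave 3 of the 10 genes lower in place of 4. The cause of these changes was not tested. Depth limits Itga11, with 4 to 11 counts per knockout library.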

Other observations

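Among the 3 protein-coding genes nearest to Itgal in pattern, chosen after their values were seen, was Cat, the gene for catalase, at 518.9, 502.7 and 451.1 CPM in WT and at 106.6, 108 and 110 CPM in knockout libraries. Clec4d, a myeloid lectin receptor, and Mgst1, a microsomal glutathione transferase, were the other 2. Their log2 fold changes ran from -2.18 to -2.08, beside -2.15 for Itgal.

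The osteoclast markers summed to 678 to 732 CPM in WT and 1240 to 1329 CPM in knockout libraries, with 1 of 6 tested genes higher (Atp6v0d2) and 1 lower (Ocstamp). Atp6v0d2 alone was at 115 to 270.8 CPM in WT and 616.9 to 667.9 CPM in knockout libraries. Acp5, Ctsk, Dcstamp and Nfatc1 were not called. Over all tested genes 14.1% were higher and 18.7% lower. The megakaryocyte markers summed to 460.2 to 611.3 CPM in WT and 530.6 to 613.2 CPM in knockout libraries, nearly all of it Pf4 at 659 to 802 FPKM in WT and 719 to 825 FPKM in knockout libraries. Of the 3 tested 1 was lower, and Gp1bb and Gp9 had 0 counts throughout. Of 3 endothelial markers tested 1 was higher, and the 6 listed summed to 5.75 to 7.90 CPM in WT and 12.05 to 15.5 CPM in knockout libraries. The 1 higher was Kdr, at 0.919 to 1.26 CPM in WT and 5.13 to 7.22 CPM in knockout libraries. The macrophage marker Timd4 had 0 counts throughout.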
